A study of Mus musculus with 6 samples.

Results

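The genes described are 40 collagens, proteoglycans, elastic fibre proteins, matrix glycoproteins and fibroblast genes of the dermis, measured in epidermal peels of embryonic mouse back skin. They were taken as named members and kept where a probe was detected, with a detection score above 0.95, on 3 or more arrays. By that rule 38 of the 40 were measured, out of 11354 genes measured in the series, and 37 of the 38 were detected on all 6 arrays. The samples were total RNA from wild-type C57BL6 embryos (3 arrays) and from embryos of a Harlequin Ichthyosis model on the same strain background (3 arrays), all at stage E17.5, late in mouse gestation. Every peel was taken after 1 hour in 5 mM EDTA at 37 °C, and 500 ng of RNA was labelled for an Illumina bead array. The labels name no mutated gene, allele or promoter and do not say whether an array holds 1 embryo or several, so that what limits the mutant as a model cannot be given from them. They call the samples biological replicates and say no more about their origin, so p-values measure the spread between these samples. Titles carry a prefix, bo20 for wild-type and mutant arrays 1 and 2 and bo12 for wild-type and mutant array 3, whose meaning the labels do not give.

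As background, the dermis is the connective tissue beneath the epidermis, and its fibroblasts secrete fibrillar collagens that give skin its tensile strength, elastic fibres that give recoil, and small proteoglycans that bind collagen fibrils and set their diameter. A sheet of basement membrane, with type IV collagen as its network and type VII collagen as its anchoring fibrils, joins the dermis to the epidermis. Keratinocytes make little of the fibrillar collagens, so dermal RNA carried along in an epidermal peel is read from such transcripts. In bulk RNA, fewer cells of a type and less RNA per cell cannot be told apart.

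Dermal matrix transcripts were present on all 6 arrays, and no member passed the test between mutant and wild-type arrays. Levels below are log2 intensities after background correction and quantile normalization, given in the order of arrays 1 to 3 of each group. A difference is mutant minus wild type on that scale, so that 1 is a 2-fold difference. Levels of different probes depend on the probe and are not set against each other. Of the 38 members, 0 rose and 0 fell at an adjusted p under 0.05 in limma, where the share of all 18358 kept probes called was 0.0% in each direction. At an unadjusted p under 0.05 the count was 1 of 38 members (Col12a1), against 5.87% of all kept probes. The member differences ran from -0.84 (Eln) to 1.54 (Ogn), with 18 above 0 and 20 below. Their median was -0.03, beside -0.04 for all kept probes. The wild-type and mutant arrays did not overlap for 3 members that were higher in mutants (Col5a1, Pdgfra and Vim) and for 1 that was lower (Col12a1), where 5.63% and 7.68% of all kept probes were separated in those directions.

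The array labelled wild type 3 stood apart from the others over the whole series, and the member results that rest on it are therefore also given without it. Over kept probes it correlated with the rest at 0.836 to 0.891, whereas pairs without it reached 0.965 to 0.99. Limma's array weight for it was 0.112. Mean raw intensity was 260 to 398 on wild-type arrays and 390 to 463 on mutant arrays, and 17159 to 18422 of 45281 probes were detected per array. Keratinocyte markers were detected, as in the epidermis the labels name, with 10 of 11 basal and 8 of 9 suprabasal markers measured. Krt5, a keratin of basal keratinocytes, read 12.64, 12.86 and 13.31 on wild-type and 12.26, 12.53 and 12.31 on mutant arrays. The mean level of the suprabasal markers was 12.03 on wild-type array 3 and 12.87 to 13.21 on the others, and Ivl, involucrin, read 8.91 there. Not all of these markers were low there. The suprabasal keratins Krt1 and Krt10 read 13.9 and 14.08, where the other arrays read 13.86 to 14.49 and 13.76 to 14.2. Abca12, the lipid transporter gene mutated in human harlequin ichthyosis, was read by 2 kept probes. Its brighter probe read 7.15, 7.84 and 4.66 on wild-type and 5.68, 5.74 and 4.86 on mutant arrays, and wild-type array 3 was lowest and did not detect it. The dimmer one read 4.4, 5.69 and 4.26 on wild-type and 6.45, 6.24 and 4.78 on mutant arrays. The probes thus differed in opposite directions between the genotypes, and as the labels name no mutated gene they check no label. Any direction that rests on wild-type array 3 rests on its label. Without it, 51 of 18358 kept probes (0.278%) passed the test, of which 0 belonged to members. The members' differences then ran from -1.06 to 0.49 with a median of 0.06, 22 of 38 were above 0, and the lowest adjusted p was 0.443 (limma).

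**Figure D1:**
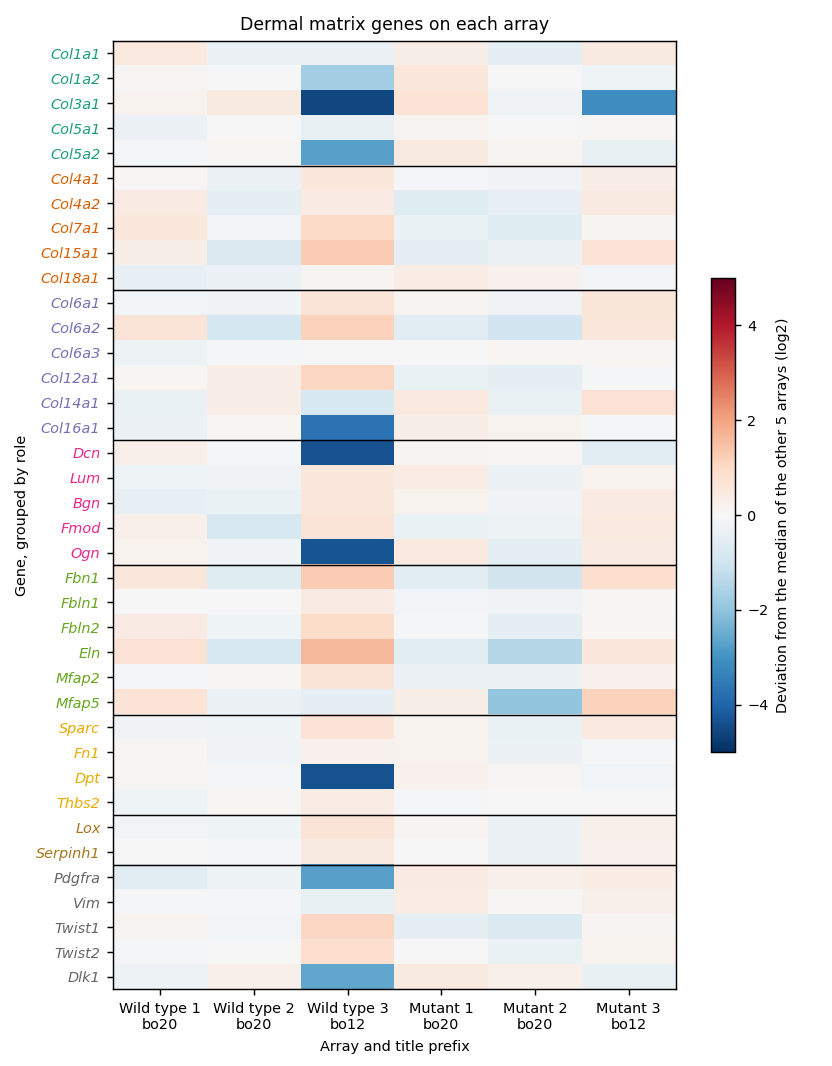
Deviation of each of 38 members from the median of the other 5 arrays (log2, colour), by array with its title prefix, with genes grouped by role. Wild-type array 3 holds 9 members lower and 6 higher by over 1, while mutant array 2 is low for Mfap5 and Eln and mutant array 3 for Col3a1.

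The fibril-forming collagens, types I, III and V, build the main fibrils of the dermis, and on wild-type array 3 the 2 chains of types I and V did not deviate alike. Col1a1, which encodes the alpha 1 chain of type I collagen, read 12.68, 12.19 and 12.19 on wild-type and 12.47, 11.98 and 12.63 on mutant arrays. The groups overlapped, with mutant array 2 lowest and wild-type array 1 highest, and the difference was 0.01 (SE 0.27, adjusted p = 0.993 in limma). Col1a2, its partner chain, read 10.89, 10.88 and 9.2 on wild-type and 11.36, 10.85 and 10.68 on mutant arrays. Here wild-type array 3 was low, 1.68 below the median of the others, and the groups overlapped. The difference was 0.64 (SE 0.49, adjusted p = 0.791), and 0.08 without that array. Col3a1, the type III chain that is abundant in fetal skin, read 10.74, 11.03 and 6.19 on wild-type and 11.24, 10.57 and 7.62 on mutant arrays. Both bo12 arrays were low, 1 in each genotype, and the other 4 lay within 10.57 to 11.24. The difference of 0.49 (SE 1.46, adjusted p = 0.918) became -1.06 without wild-type array 3 and was 0.02 between the bo20 arrays.

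Type V collagen is built into type I fibrils and limits their width. Col5a1 read 12.67, 12.93 and 12.58 on wild-type and 13.07, 12.95 and 12.99 on mutant arrays, so that every mutant array was above every wild-type array, the nearest pair being 12.95 and 12.93. The difference of 0.28 (SE 0.2, adjusted p = 0.791) did not pass the test. Col5a2 read 7.65, 7.69 and 4.98 on wild-type and 8.09, 7.8 and 7.34 on mutant arrays. Wild-type array 3 was again far below the rest, and the difference went from 0.96 (SE 0.72, adjusted p = 0.791) to 0.07 without it. Its second kept probe read 6.74, 6.85 and 5.38 on wild-type and 6.66, 6.49 and 5.34 on mutant arrays, low on both bo12 arrays. Over the 5 genes of the group, all 5 differences were above 0 and the median was 0.49, but it was 0.07 without wild-type array 3, with Col1a1 and Col3a1 below 0, and 0 passed the test either way.

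On wild-type array 3 the collagens of the basement membrane zone all lay above the median of the other arrays, by 0.14 (Col18a1) to 1.26 (Col15a1), whereas Col3a1 and Col5a2 lay below it. Type IV collagen forms the network of the basement membrane, and its alpha 1 and alpha 2 genes lie head to head on mouse chromosome 8 in assembly GRCm38.p6. The RefSeq windows from 250 bases before to 50 bases after each start site are chr8:11312777-11313076 on the minus strand for Col4a1 and chr8:11312555-11312854 on the plus strand for Col4a2. They are shown because they overlap: the capitals mark the same 78 bases, chr8:11312777-11312854, read on opposite strands.
Col4a1: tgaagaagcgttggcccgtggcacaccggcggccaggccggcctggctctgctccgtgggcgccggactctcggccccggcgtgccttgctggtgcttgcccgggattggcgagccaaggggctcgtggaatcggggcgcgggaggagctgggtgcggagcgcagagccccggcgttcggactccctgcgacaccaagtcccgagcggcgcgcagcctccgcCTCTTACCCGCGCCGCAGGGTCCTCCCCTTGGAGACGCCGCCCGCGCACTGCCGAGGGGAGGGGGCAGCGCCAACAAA
Col4a2: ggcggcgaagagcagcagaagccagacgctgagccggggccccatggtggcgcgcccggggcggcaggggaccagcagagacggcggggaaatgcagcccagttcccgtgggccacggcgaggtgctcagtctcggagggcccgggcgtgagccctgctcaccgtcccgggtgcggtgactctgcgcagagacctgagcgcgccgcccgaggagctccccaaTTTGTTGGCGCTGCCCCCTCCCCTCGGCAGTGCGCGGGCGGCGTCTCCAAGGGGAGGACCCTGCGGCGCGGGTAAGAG
The letters CCAAT were searched on both strands, and occurred 1 time in each window. Neither match lay wholly within the shared bases. GGGCGG, also searched on both strands, occurred 1 time in the Col4a1 window and 3 times in that of Col4a2, of which 1 match lay in the shared bases. Of all 32851 RefSeq windows of this length, 37.4% held CCAAT and 35.7% held GGGCGG on either strand. Among the 29 members with a window, 13 held the first and 16 the second. These matches describe the letters of the window and are not binding sites.

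On the arrays, Col4a1 read 11.62, 11.32 and 12.09 on wild-type and 11.56, 11.45 and 11.88 on mutant arrays. Both bo12 arrays were above the bo20 arrays of their genotype, and the groups overlapped, with a difference of -0.05 (SE 0.27, adjusted p = 0.956 in limma). Col4a2 read 10.9, 10.42 and 10.91 on wild-type and 10.31, 10.49 and 10.94 on mutant arrays. It too was highest on the bo12 array of each genotype, and the groups overlapped. The difference was -0.17 (SE 0.26, adjusted p = 0.849).

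Col7a1, the gene of the anchoring fibrils that keratinocytes and fibroblasts both make, read 10.67, 10.14 and 11.11 on wild-type and 9.92, 9.66 and 10.26 on mutant arrays. The mutant arrays were mostly below the wild-type ones, but mutant array 3 lay above wild-type array 2. The difference of -0.69 (SE 0.31) had an unadjusted p of 0.0592 and an adjusted p of 0.791. Within bo20 it was -0.61 and within bo12 -0.85, while a second, dimmer probe of the gene gave -0.03. Col15a1, a collagen at the outer face of basement membranes, read 8.15, 7.41 and 9.13 on wild-type and 7.66, 7.87 and 8.55 on mutant arrays, highest on the bo12 arrays. Its difference was -0.2 (SE 0.46, adjusted p = 0.893). Col18a1, which carries endostatin at its end, read 10.96, 11.04 and 11.35 on wild-type and 11.58, 11.43 and 11.22 on mutant arrays. The groups overlapped only through wild-type array 3 and mutant array 3, and the difference was 0.29 (SE 0.22, adjusted p = 0.791). In this group 1 of 5 differences was above 0 and 4 were below, with a median of -0.17. Without wild-type array 3 the median turned to 0.16, and only Col4a2 and Col7a1 were below 0.

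Type VI collagen forms beaded filaments around cells, and types XII, XIV and XVI attach to the surface of other fibrils. The 3 type VI genes overlapped between the genotypes. Col6a1 read 12.52, 12.49 and 13.16 on wild-type and 12.67, 12.48 and 13.12 on mutant arrays, with the bo12 array highest in each and a difference of 0.03 (SE 0.28, adjusted p = 0.974). Col6a2 read 10.52, 9.59 and 11.03 on wild-type and 9.86, 9.5 and 10.45 on mutant arrays, with a difference of -0.44 (SE 0.42, adjusted p = 0.793). Col6a3 spanned the least of them, at 12.62, 12.79 and 12.89 on wild-type and 12.89, 12.97 and 12.97 on mutant arrays. Its groups met at 12.89, and the difference was 0.18 (SE 0.19, adjusted p = 0.799).

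Col12a1, a fibril-associated collagen of tissues under tension, was the 1 member with an unadjusted p under 0.05. It read 9.19, 9.4 and 10.12 on wild-type and 8.84, 8.71 and 9.08 on mutant arrays. Every mutant array was below every wild-type array, the nearest pair being 9.08 and 9.19. The difference was -0.69 (SE 0.29, unadjusted p = 0.0498, adjusted p = 0.791 in limma), and -0.41 without wild-type array 3. The second kept probe of the gene read 8.02, 8.0 and 8.37 on wild-type and 7.67, 7.63 and 8.13 on mutant arrays, where the groups overlapped. Col14a1 read 8.26, 8.59 and 7.84 on wild-type and 8.76, 8.24 and 9.0 on mutant arrays, with overlapping groups and a difference of 0.44 (SE 0.3, adjusted p = 0.791). Its second probe went the other way on wild-type array 3, reading 7.55, 7.16 and 8.35 on wild-type and 7.46, 6.94 and 8.04 on mutant arrays. Col16a1 read 11.3, 11.6 and 7.9 on wild-type and 11.77, 11.66 and 11.49 on mutant arrays. Wild-type array 3 was 3.7 log2 units below the median of the others, which lay within 11.3 to 11.77. The difference of 1.37 (SE 0.91, adjusted p = 0.791) was 0.19 without it.

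The small leucine-rich proteoglycans coat collagen fibrils. By the brightest probe, 2 of the 5, Dcn and Ogn, stood far below the other arrays on wild-type array 3. Dcn, decorin, read 13.71, 13.44 and 9.14 on wild-type and 13.59, 13.51 and 12.95 on mutant arrays. The 4 bo20 arrays lay close together, mutant array 3 was somewhat lower, and wild-type array 3 was 4.37 below the median of the others. The difference of 1.25 (SE 1.14, adjusted p = 0.793 in limma) turned to -0.22 without that array. Ogn, osteoglycin, showed the largest difference of all members, with levels of 9.66, 9.48 and 5.33 on wild-type and 9.98, 9.2 and 9.9 on mutant arrays. That difference, 1.54 (SE 1.1, adjusted p = 0.791), rested on wild-type array 3 and was 0.12 without it. Lum, lumican, read 12.23, 12.29 and 12.8 on wild-type and 12.65, 12.16 and 12.45 on mutant arrays, where wild-type array 3 was the highest of the 6. Its difference was -0.02 (SE 0.25, adjusted p = 0.977). Bgn, biglycan, read 12.22, 12.29 and 12.98 on wild-type and 12.62, 12.43 and 12.84 on mutant arrays, with a difference of 0.13 (SE 0.27, adjusted p = 0.886). Fmod, fibromodulin, was near the limit of detection at 5.49, 4.7 and 5.89 on wild-type and 5.14, 5.24 and 5.72 on mutant arrays, and was not detected on wild-type array 2. Its difference was 0.01 (SE 0.35, adjusted p = 0.996).

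Read by the brightest probe, the elastic fibre and microfibril genes all had differences below 0, 6 of 6 with a median of -0.37. Among all kept probes 9904 of 18358 were below 0. Of the 6 genes, 0 passed the test. Fbln1 and Mfap5 turned to 0.08 and 0.22 with median scaling and to 0.06 and 0.08 in the authors' deposited table. Fbln1 was 0.28 when its kept probes were averaged. The median of the group was -0.17 without wild-type array 3, -0.38 within bo20 and -0.42 within bo12. Eln, elastin itself, read 10.91, 9.92 and 11.83 on wild-type and 10.2, 9.26 and 10.7 on mutant arrays. The groups overlapped, with mutant array 2 lowest and wild-type array 3 highest. The difference of -0.84 (SE 0.55, adjusted p = 0.791 in limma) was -0.36 without wild-type array 3. Fbn1, fibrillin 1, the main protein of the microfibrils on which elastin is laid down, read 9.4, 8.8 and 10.12 on wild-type and 8.85, 8.5 and 9.7 on mutant arrays. In both genotypes array 3 was highest and array 2 lowest, and the difference was -0.42 (SE 0.43, adjusted p = 0.796). Fbln2, fibulin 2, read 9.35, 8.83 and 9.85 on wild-type and 8.94, 8.58 and 9.05 on mutant arrays, with a difference of -0.49 (SE 0.31, adjusted p = 0.791). Mfap2, a microfibril glycoprotein, read 12.25, 12.32 and 12.89 on wild-type and 12.02, 12.05 and 12.46 on mutant arrays. Only mutant array 3 lay within the wild-type range, and the difference was -0.31 (SE 0.26, adjusted p = 0.791).

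Fbln1, fibulin 1, and Mfap5, a second microfibril glycoprotein, complete the group. Fbln1 read 10.75, 10.78 and 11.15 on wild-type and 10.63, 10.62 and 10.82 on mutant arrays, with overlapping groups and a difference of -0.2 (SE 0.21, adjusted p = 0.797). Mfap5 read 8.95, 8.25 and 8.1 on wild-type and 8.54, 6.56 and 9.4 on mutant arrays, so that the mutants held both the lowest and the highest array. The difference was -0.27 (SE 0.69, adjusted p = 0.907), made of -1.05 within bo20 and 1.3 within bo12.

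Among the matricellular and adhesive glycoproteins, 4 of 6 members were measured. Sparc, a collagen-binding protein secreted by fibroblasts and endothelium, read 13.45, 13.42 and 14.14 on wild-type and 13.62, 13.3 and 13.94 on mutant arrays. It was highest on the bo12 array of each genotype, and the difference was -0.05 (SE 0.29, adjusted p = 0.961). Fn1, fibronectin, held the narrow range of 9.22, 9.06 and 9.41 on wild-type and 9.35, 8.92 and 9.19 on mutant arrays, with a difference of -0.08 (SE 0.22, adjusted p = 0.911). Thbs2, thrombospondin 2, read 10.75, 11.01 and 11.34 on wild-type and 10.9, 10.98 and 10.96 on mutant arrays, all 3 mutants within the wild-type range, and differed by -0.08 (SE 0.22, adjusted p = 0.911). Dpt, dermatopontin, which binds decorin, read 10.09, 10.05 and 5.74 on wild-type and 10.28, 10.1 and 9.93 on mutant arrays. Apart from wild-type array 3 the levels lay within 9.93 to 10.28, and the difference of 1.48 (SE 1.1, adjusted p = 0.791 in limma) was 0.04 without that array. The other 2 members were not kept. Postn, periostin, was detected only on wild-type arrays 1 and 2, where its brighter probe read 4.99 and 4.96, and Thbs1, thrombospondin 1, only on mutant arrays 1 and 2, at 4.91 and 5.34. The lowest level of any detected probe was 4.77 to 4.9 per array, so both genes were at the limit of detection and no fold is given.

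Collagen folding and crosslinking were represented by Serpinh1, the collagen chaperone HSP47, and Lox, lysyl oxidase, which starts the crosslinks of collagen and elastin. Serpinh1 read 13.79, 13.74 and 14.21 on wild-type and 13.77, 13.5 and 13.97 on mutant arrays, with a difference of -0.16 (SE 0.24, adjusted p = 0.836). Lox read 10.3, 10.2 and 10.94 on wild-type and 10.42, 10.12 and 10.54 on mutant arrays, with a difference of -0.12 (SE 0.27, adjusted p = 0.894). For both genes the bo12 array was highest and array 2 lowest in each genotype. The levels of Serpinh1, Sparc, Dcn and Dlk1 reached within 1 log2 unit of the highest level of any kept probe, 14.61, where differences can be compressed.

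By the brightest probe of each, the fibroblast identity genes split between genes that were low and genes that were high on wild-type array 3. Pdgfra, the PDGF receptor that marks dermal fibroblasts, read 9.42, 9.7 and 7.27 on wild-type and 10.11, 9.98 and 10.08 on mutant arrays. All mutant arrays were above all wild-type arrays, also with wild-type array 3 left aside, and the mutants lay within 9.98 to 10.11. The difference of 1.26 (SE 0.61, unadjusted p = 0.0764, adjusted p = 0.791 in limma) was 0.49 without wild-type array 3, with an adjusted p of 0.443. Vim, vimentin, the intermediate filament of mesenchymal cells, read 11.79, 11.77 and 11.48 on wild-type and 12.15, 11.84 and 12.06 on mutant arrays, separated by 11.79 against 11.84. The difference was 0.34 (SE 0.21, adjusted p = 0.791). Dlk1, a Notch-like protein known from fibroblast precursors of the lower dermis, read 13.83, 14.07 and 11.48 on wild-type and 14.26, 14.08 and 13.71 on mutant arrays, with wild-type array 3 low and a difference of 0.89 (SE 0.66, adjusted p = 0.791) that was 0.05 without it. The second kept Dlk1 probe was instead highest on wild-type array 3, at 13.51, and gave a difference of -0.2 (SE 0.25).

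Twist1 and Twist2, transcription factors of the dermal lineage, went the other way on that array. Twist1 read 9.24, 9.09 and 10.14 on wild-type and 8.74, 8.5 and 9.24 on mutant arrays. Mutant arrays 1 and 2 were below all wild-type arrays and mutant array 3 equalled wild-type array 1 at 9.24. The difference was -0.66 (SE 0.35, adjusted p = 0.791). Twist2 read 11.32, 11.36 and 12.19 on wild-type and 11.38, 11.05 and 11.53 on mutant arrays, with a difference of -0.31 (SE 0.3, adjusted p = 0.793) that was -0.02 without wild-type array 3.

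**Figure D2:**
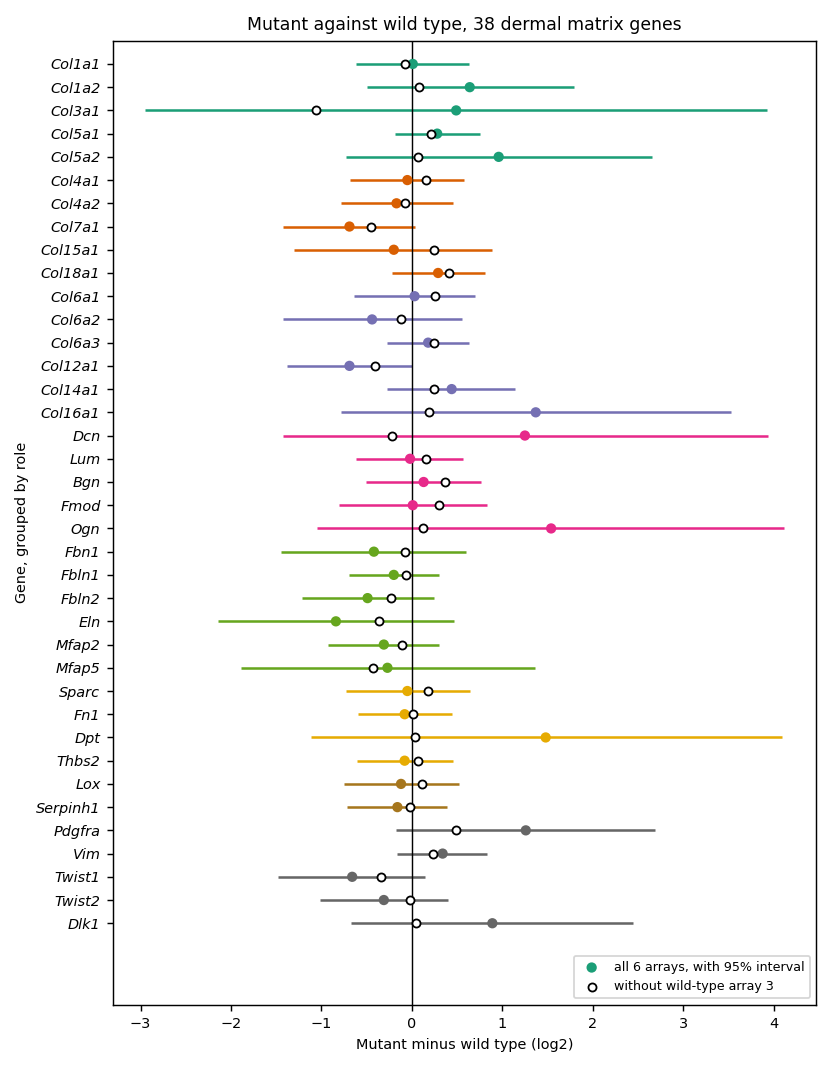
Mutant minus wild type (log2) for each of 38 members, grouped by role: filled points with 95% confidence intervals from the fit over all 6 arrays, open points without wild-type array 3. The widest intervals, at Col3a1, Dcn, Dpt and Ogn, belong to genes whose open points lie between -1.06 and 0.12.

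How large a difference these arrays could have missed varied between members. The 95% interval lay wholly within 1 log2 unit of 0, less than a 2-fold difference either way, for 18 of 38 members, and for 32 of 38 without wild-type array 3. The intervals of Col1a1, from -0.62 to 0.63, and of Fn1, from -0.6 to 0.44, were among the narrower ones. Those of Col3a1, from -2.95 to 3.93, and of Dcn, from -1.43 to 3.94, set almost no bound.

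Member levels per array were described by how far each member stood from the median of the other 5 arrays. This is not a measure of dermal RNA alone, as keratinocytes also make Col7a1. The median of that deviation over the 38 members was 0.03 on wild-type array 1, -0.15 on wild-type array 2, 0.41 on wild-type array 3, 0.15 on mutant array 1, -0.28 on mutant array 2 and 0.19 on mutant array 3. For all kept probes the same medians were -0.03, -0.03, 0.29, -0.03, -0.04 and 0.03. By this median array 2 was low in both genotypes, with 28 of 38 members below 0 in wild type and 27 in mutants. Array 3 was high by it, with 24 and 27 of 38 above 0. These counts have no share of all kept probes beside them. The mean member level was instead lowest on wild-type array 3, at 10.29, beside 10.5 to 10.83 on the others. The fibril-forming collagens had a median deviation of -1.68 there and -0.2 on mutant array 3. Which array was lowest or highest depended on the scaling. With median scaling wild-type array 1 was lowest, at -0.46, and mutant array 3 highest, at 0.31. All kept probes had medians of -0.52 and 0.09 on those arrays, so the first value went with the whole array. Mutant array 2 was then at -0.14, beside 0.12 for all kept probes. In the authors' deposited table wild-type array 1 was lowest, at -0.38, beside -0.1 for all kept probes.

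On wild-type array 3 the median hid a wide split. There 9 of 38 members were lower by over 1 log2 unit (Col3a1, Dcn, Dpt, Ogn, Col16a1, Col5a2, Pdgfra, Dlk1 and Col1a2), where 15.6% of all kept probes were, and 6 were higher by over 1 (Eln, Fbn1, Col15a1, Col6a2, Twist1 and Col12a1), where 9.46% were. The deviations there ran from -4.54 to 1.64. On the other arrays members stayed closer to the rest. On wild-type arrays 1 and 2 and mutant array 1 the counts past 1 log2 unit were 0 in each direction, mutant array 2 had 2 lower (Mfap5 and Eln), and mutant array 3 had 1 lower (Col3a1) and 1 higher (Mfap5).

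Different probes of the same gene gave opposite readings on wild-type array 3. Of 18 members read by more than 1 kept probe, 6 had probe deviations on that array over 2 log2 units apart (Col3a1, Dcn, Lum, Fbln1, Sparc and Dlk1), against 19.1% of the 3551 genes with several kept probes. On mutant array 3 there were 2 such members (Col3a1 and Sparc), against 0.929% of genes, and on the other 4 arrays 0. The brightest Lum probe was highest on wild-type array 3, at 12.8, whereas the second read 10.73, 10.73 and 6.94 on wild-type and 11.18, 10.84 and 10.67 on mutant arrays. That second probe gave a difference of 1.43 (SE 0.97), and of 0.17 without wild-type array 3. For Dlk1 the second probe read 12.98, 12.99 and 13.51 on wild-type and 12.86, 12.78 and 13.24 on mutant arrays, highest where the first was lowest. One dimmer Sparc probe read 9.79, 10.02 and 7.25 on wild-type and 10.54, 9.95 and 7.95 on mutant arrays, low on both bo12 arrays, where the brightest Sparc probe was high. One Fbln1 probe read 11.37 and 11.25 on the other wild-type arrays and 7.06 on wild-type array 3, while another had its highest reading there, 8.57. For Dcn, 3 of 4 kept probes were low on that array, and the exception, which is named by the platform alone, read 7.03 there and 5.24 to 6.15 elsewhere.

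**Figure D3:**
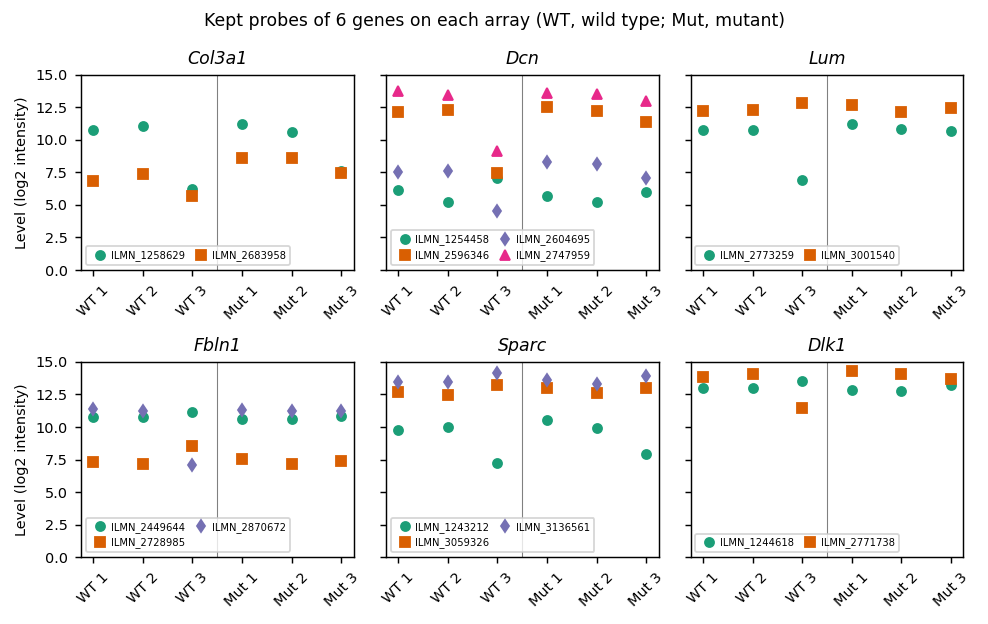
Level (log2 intensity) of every kept probe of 6 members on each array, wild type (WT) left of the grey line and mutant (Mut) right of it, 1 symbol per probe. On WT 3 probes of 1 gene part, as Lum at 12.8 and 6.94, and on Mut 3 the circles of Col3a1 and Sparc are low, at 7.62 and 7.95.

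At an unadjusted p under 0.05 in limma there were 2 of 62 kept member probes, beside 5.87% of all kept probes. Besides that of Col12a1, the other was the second Col3a1 probe. It read 6.87, 7.36 and 5.66 on wild-type and 8.57, 8.59 and 7.46 on mutant arrays, and every mutant array was above every wild-type array. The difference was 1.58 (SE 0.51, unadjusted p = 0.017, adjusted p = 0.694 in limma) and 1.08 without wild-type array 3. On the brighter probe the same gene gave 0.49, so the probes of Col3a1 did not read alike between genotypes either.

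Within title prefixes, mutant and wild-type arrays were compared 2 against 2 in bo20 and 1 against 1 in bo12, as a description. The fit within bo20 called 0 of 38 members (lowest adjusted p = 0.33 in limma), and bo12 allows no test. The median member difference was 0.02 in bo20 and -0.16 in bo12, where all kept probes had medians of 0.0 and -0.19. With median scaling these member medians were 0.22 and 0.18, and the authors' deposited table gave 0.22 and 0.07, so the direction within bo12 depended on the scaling. Median scaling also moved all kept probes. Their median difference over all arrays was 0.31 with it, beside -0.04 in the main setting and -0.02 in the authors' table. In bo20 only Mfap5, at -1.05, differed by over 1 log2 unit, 1 of 38 members, beside 1.99% of all kept probes. In bo12, which holds wild-type array 3, 13 of 38 did, beside 20.1% of kept probes. The 2 within-prefix differences had the same sign for 25 of 38 members and for 59.9% of kept probes. By role, the fibril-forming collagens had medians of 0.21 in bo20 and 1.43 in bo12, the basement membrane zone collagens -0.01 and -0.21, the beaded-filament and fibril-associated collagens 0.07 and 0.02, and the proteoglycans 0.1 and -0.15. The glycoproteins had 0.05 and -0.21, the folding and crosslinking genes -0.05 and -0.31, and the fibroblast identity genes 0.21 and 0.58. The elastic fibre genes had medians below 0 in both, as given above, although Mfap5 was at 1.3 within bo12.

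Between prefixes, many members moved the same way in both genotypes. In 20 of 38 members the bo12 array was above both bo20 arrays in wild type and again in mutants, beside 32.9% of all kept probes. They included both type IV and all 3 type VI genes, Col7a1, Col15a1, Col12a1, Bgn, Fmod, Sparc, Lox, Serpinh1, Twist1, Twist2 and the elastic fibre genes other than Mfap5. In 7 members (Col1a2, Col3a1, Col5a2, Col16a1, Dcn, Dpt and Dlk1) it was below both in each genotype, beside 19.3% of kept probes. Seen in the mutants alone, which leaves wild-type array 3 aside, 23 of 38 members were above and 8 below, beside 44.2% and 34.8% of kept probes.

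For Col3a1, Dcn, Dpt and Ogn, which were low on wild-type array 3, the size of the shift differed between the genotypes. Each bo12 value is 1 array, and the wild-type one is wild-type array 3. An effect of genotype on the shift cannot be told apart from that array. From bo20 to bo12 Col3a1 shifted by -4.69 in wild type and by -3.28 in mutants. Dcn shifted by -4.43 and -0.61, Dpt by -4.33 and -0.26, and Ogn by -4.24 and 0.3, so that the shift was under 1 log2 unit in mutants. Among the genes that were high in both, Eln shifted by 1.42 and 0.98, Fbn1 by 1.02 and 1.03, Col15a1 by 1.35 and 0.78, and Col6a2 by 0.97 and 0.76. Across the 38 members the shifts in the 2 genotypes, which share no array, had a Pearson r of 0.637, and across all 18358 kept probes 0.538. Members are not independent, so no p is given. The sign was the same for 31 of 38 members and for 68.9% of kept probes.

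**Figure D4:**
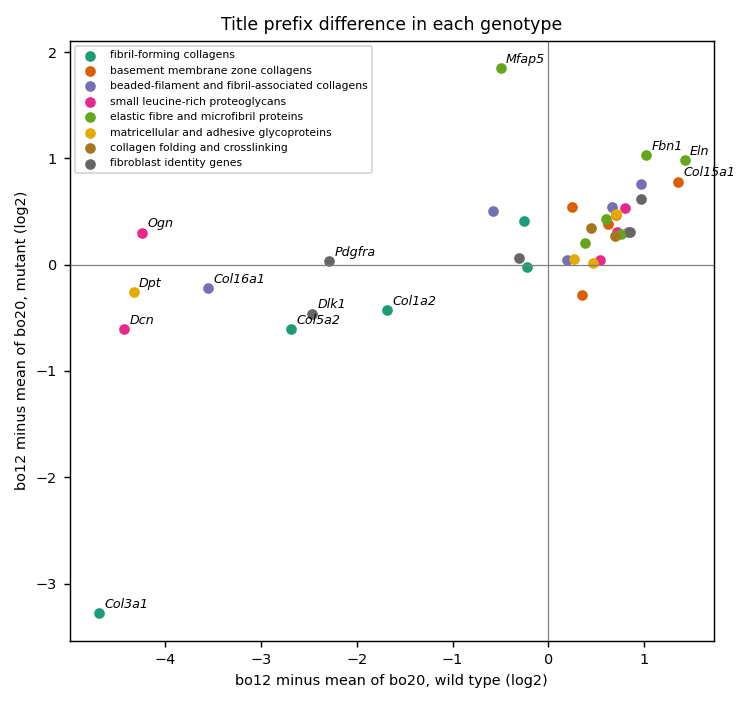
For each of 38 members, the bo12 array minus the mean of the bo20 arrays (log2) in wild type (horizontal) and in mutants (vertical), coloured by role. Col3a1 is low in both, at -4.69 and -3.28, Dcn, Dpt and Ogn are at -4.24 or lower in wild type and between -0.61 and 0.3 in mutants, and Mfap5 stands apart at 1.85 in mutants.

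Markers of other cells of the skin moved between arrays as well. On wild-type array 3 the median deviation was 0.49 for 10 of 10 endothelial markers measured, 0.77 for 8 of 10 pericyte and smooth muscle markers, 0.91 for 5 of 6 melanocyte markers, 0.85 for 8 of 10 hair follicle markers and 0.58 for 8 of 9 dermal condensate markers. All kept probes had a median of 0.29 there. The endothelial markers did not move together, with Pecam1 at 0.69 and Cdh5 at 0.5, but Emcn at -1.83 and Esam at -2.94. Skeletal muscle markers, 11 of 11 measured, were at -1.06 there, suprabasal keratinocyte markers, 8 of 9, at -0.22 and basal keratinocyte markers, 10 of 11, at 0.1. On mutant array 3, the other bo12 array, the medians of these 8 lists lay between -0.22 and 0.21. The adipocyte markers, 3 of 7 measured, were at -1.3 on wild-type array 2 and at -0.64 on mutant array 2, and the skeletal muscle markers at 0.21 and 0.5. The mean level of the muscle markers was 11.07 to 12.87 on wild-type and 12.49 to 13.15 on mutant arrays, that of the endothelial markers 7.83 to 8.21 and 7.92 to 8.14, and that of the adipocyte markers 7.91 to 10.56 and 8.26 to 10.25. Macrophage and Langerhans cell markers, 10 of 11 measured, had mean levels of 7.54 to 8.06 and 8.35 to 8.55, with 10 of 10 differences above 0 and 0 past the test (lowest adjusted p = 0.101 in limma). Without wild-type array 3, 1 of them passed, the lysozyme gene Lyz2, with a difference of 1.91 (adjusted p = 0.0291 in limma). Of 6 erythroid markers 3 were measured, with a median deviation on wild-type array 3 of -0.01. Among the adipocyte markers, the Fabp4 probe was not detected on enough arrays. The part of these cells in the member values was not tested.

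The rest of the collagen and matrix machinery, 69 measured genes in 4 lists, also had 0 genes past the test in either direction, with 24 differences above 0, 45 below and a median of -0.09, or 0.05 without wild-type array 3. The groups were separated for 1 of the 69 genes upwards in mutants and for 1 downwards, beside 5.63% and 7.68% of all kept probes. Collagen biosynthesis and processing had 17 of 25 genes measured, 6 above 0 and 11 below. Its largest differences were 0.7 (SE 0.28) for Sec23a, a coat protein that carries procollagen out of the endoplasmic reticulum, -0.48 (SE 0.35) for the prolyl hydroxylase P3h1 and -0.41 (SE 0.31) for the lysyl hydroxylase Plod1, each with an adjusted p of 0.791. Further collagens had 9 of 13 measured, 4 above 0 and 5 below, led by Col4a5 at 0.93 (SE 0.77), or -0.03 without wild-type array 3, Col5a3 at -0.43 (SE 0.33) and Col8a2 at 0.34 (SE 0.23). Further dermal matrix genes had 27 of 37 measured, 6 above 0 and 21 below.

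In that last list Prelp, a proteoglycan that anchors basement membranes to connective tissue, was the gene separated upwards. It read 8.77, 9.05 and 8.71 on wild-type and 9.47, 9.49 and 10.2 on mutant arrays, and the difference was 0.88 (SE 0.27, adjusted p = 0.648). Igfbp7, made by vessels and fibroblasts, read 11.56, 11.37 and 7.17 on wild-type and 11.76, 11.65 and 10.04 on mutant arrays. Both bo12 arrays were low, and the difference of 1.12 (SE 1.17, adjusted p = 0.796) turned to -0.31 without wild-type array 3. The Wnt modulator Sfrp2 had a difference of 0.94 (SE 0.8), which was 0.01 once wild-type array 3 was left out. Further fibroblast markers had 16 of 19 measured, 8 above 0 and 8 below, with Islr at 0.91 (SE 0.4), Thy1 at -0.78 (SE 0.34) and Meox2 at 0.58 (SE 0.69), which was -0.28 without wild-type array 3.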

How the data were processed

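The authors deposited raw intensities per probe and array for 45281 probes, without background correction or normalization per the file headers, and beside each a fraction from 0 to 1. The brightest probes stand at 1, so a high fraction was taken to mean detection (1 minus the p), although its heading reads as a p-value. The submitters' processing notes name BeadStudio with no version. A log2 table, also deposited, was recomputed from the raw intensities as log2 intensity minus the array's 75th percentile and minus the probe's median (100% of values within 0.001). No probe positions or genome build of the array were used here.

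Intensities were corrected with normexp (nec in limma 3.58.1, R 4.3.3, offset 16), then log2-transformed and quantile-normalized. Probes with a detection score above 0.95 on at least 3 arrays were kept (18358). Precision is limited by the 3 arrays per group. No 2 arrays held the same values. Of all probes, 35784 had 1 gene symbol, 0 had several and 9497 had none. Symbols were updated through Entrez identifiers for 28620 and accessions for 2637, and kept for 4527. The brightest kept probe stood for a gene. Mutant and wild-type arrays were compared by a two-sided moderated test in limma (lmFit, eBayes, no covariates), with Benjamini-Hochberg adjustment over all kept probes and a threshold of 0.05. The fit was also run on simulated arrays with normal noise of 1 common spread. They held no outlying array and no prefix effect, so that run does not show the power of the test here. Promoter windows are RefSeq's for GRCm38.p6, and 29 of 40 members had one.

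The members and lists were chosen with earlier results of these data known. All members are named, then the 3 genes with the largest difference in each further matrix list. Marker genes are given by list, apart from Krt1, Krt5, Krt10, Ivl, Emcn, Esam, Pecam1, Cdh5, Lyz2, Fabp4, Adipoq, Pparg and Abca12. Results for 1 marker list are not reported here. Same-numbered arrays of the genotypes deviated together (correlations of deviations 0.27, 0.462 and 0.538), each over 0.1, although wild-type array 2 with mutant array 1 (0.449) and wild-type array 1 with mutant array 2 (0.191) also did. That rule cannot show that the numbers pair the samples, as mismatched arrays met it and both arrays 3 share the bo12 prefix. The main test used no pairing, and a replicate block was an alternative. The other alternatives were other background corrections, scaling, filters, variance models, array weights, the prefix as a block, bo20 alone, the mean of a gene's probes and leaving out each array.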

Additional observations from a re-analysis of the deposited data

How the results depend on the processing

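No member passed the test in any of 18 alternatives (lowest adjusted p = 0.223 in limma, with array weights). Of 683 member values under them, 66 in 17 genes changed sign. The count of all kept probes past the threshold was 0, and 129 with array weights, 78 within bo20, 48 with the prefix as a block, 6 in the authors' table, 1 without background correction and 0 to 51 leaving out an array, the 51 without wild-type array 3. The fit with the replicate block, which pairs same-numbered arrays, called 0 probes and changed no call. The member median of -0.03 was 0.18 in the authors' table and 0.21 with median scaling, which moved all kept probes to 0.31, and -0.14 to 0.11 leaving out an array, lowest without mutant array 3 and highest without mutant array 2. The member median on wild-type array 1 went from 0.03 to -0.46 with median scaling and -0.38 in the authors' table, where all kept probes were at -0.52 and -0.1. With those settings the bo20 median was 0.22 in each and the bo12 median 0.18 and 0.07. Signs that turned were, with array weights, Col1a1 -0.19, Col3a1 -0.17, Col4a1 0.02, Lum 0.16, Sparc 0.08, Thbs2 0.08, Lox 0.03 and Meox2 -0.17. In the authors' table they were Col4a1 0.19, Col4a2 0.09, Col15a1 0.05, Lum 0.18, Fmod -0.13, Fbln1 0.06, Mfap5 0.08, Fn1 0.18, Thbs2 0.17, Lox 0.15 and Col8a2 -0.13. With median scaling they were Col4a1 0.17, Col4a2 0.12, Col15a1 0.25, Lum 0.12, Fbln1 0.08, Mfap5 0.22, Fn1 0.31, Thbs2 0.18, Lox 0.19 and Plod1 0.11. Averaging a gene's probes gave Col6a3 -0.08, Lum 0.7, Fbln1 0.28, Sparc 0.18 and Fn1 0.11, and no background correction or an offset of 50 gave Fmod -0.01. Within bo20 Col1a1 was -0.21, Col4a1 0.03, Dcn -0.02, Lum 0.14, Sparc 0.03, Thbs2 0.07, Lox 0.02 and Meox2 -0.2. Leaving out 1 array gave -0.01 to 0.37 for Bgn, -0.61 to 0.24 for Col15a1, -0.13 to 0.2 for Col1a1, -1.06 to 1.58 for Col3a1, -0.23 to 0.16 for Col4a1, -0.03 to 1.46 for Col4a5, -0.15 to 0.26 for Col6a1, -0.22 to 2.03 for Dcn and -0.32 to 0.3 for Fmod. It gave -0.18 to 0.04 for Fn1, -0.31 to 1.88 for Igfbp7, -0.26 to 0.11 for Lox, -0.14 to 0.16 for Lum, -0.28 to 1.17 for Meox2, -0.88 to 0.54 for Mfap5, -0.21 to 0.18 for Sparc and -0.22 to 0.07 for Thbs2. The cause of these turns was not tested. Members near the limit of detection (Fmod, Postn and Thbs1) are limited by signal over background.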

Other observations

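A few genes of the deep dermis and fat, chosen after their values were seen, were lowest on mutant array 2 in these samples, as Mfap5 and Eln were among the members. Tnxb, a tenascin of loose connective tissue, read 8.04, 7.1 and 8.53 on wild-type and 7.58, 6.43 and 9.09 on mutant arrays. Pi16, a marker of fibroblasts in the fascia, read 8.03, 7.57 and 8.01 on wild-type and 7.41, 6.22 and 8.4 on mutant arrays. Adipoq, the fat cell hormone adiponectin, read 10.82, 5.57 and 7.86 on wild-type and 7.85, 5.44 and 10.31 on mutant arrays. Each of these 3 was lowest on array 2 of its genotype, and the 3 Adipoq values of a genotype spread over far more than the genotypes' means differed (8.08 in wild type and 7.87 in mutants). With 3 arrays a group, no test of this spread was made. Not every fat marker was lowest on mutant array 2. Pparg, another adipocyte marker, read 9.22, 7.63 and 9.0 on wild-type and 8.11, 8.29 and 8.93 on mutant arrays. It was lowest on wild-type array 2, and among mutants on array 1. The adipocyte markers had a median deviation of -1.3 on wild-type array 2 and -0.64 on mutant array 2.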
